A study of Arabidopsis thaliana with 8 samples.

Results

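AT5G43440 and AT5G43450 are next to each other among the protein-coding genes of chromosome 5 of Arabidopsis thaliana, and both encode 2-oxoglutarate-dependent dioxygenases. The pair was chosen by its measured signal, which was lower in abh1 than in wild type in earlier results from these same arrays. Each gene has 1 probe set, and the pair makes 2 of the 13286 genes that have a probe set of their own here. Transcripts were measured on Affymetrix arrays in green tissue of plants aged 4 weeks. Wild-type Columbia and abh1 plants were each sprayed with water alone (mock) or with water holding 50 µM abscisic acid (ABA), and tissue was taken 4 h later. This gives 4 groups, mock and ABA within each genotype, of 2 arrays each (replicates 1 and 2 in the labels). RNA of 3 biological replicates was pooled for every array. The labels name no allele or line for abh1, so every comparison of genotypes rests on abh1 plants as such.

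Dioxygenases of this class use iron, molecular oxygen and 2-oxoglutarate, an intermediate of the citric acid cycle, to hydroxylate or desaturate small molecules. In plants the class includes enzymes that make or inactivate gibberellins, jasmonates, salicylate and auxin, and enzymes of flavonoid, coumarin and glucosinolate metabolism. The ethylene-forming ACC oxidases are close in sequence to it, and AT5G43440 and AT5G43450 belong to a group that resembles them. ABH1 is the large cap-binding protein of the nucleus, part of a complex that holds the 5′ cap of new messenger RNAs, and abh1 plants are known for a heightened response to ABA. ABA is the hormone through which leaves respond to drought.

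Values are MAS5 signals on a linear scale, already scaled when deposited, with 2% trimmed means from 500.04 to 500.05 over the 8 arrays. Replicate 1 arrays had median signals of 131 to 160.5 and replicate 2 arrays of 180 to 216. The 2 wild-type ABA arrays were the least alike of the 4 same-group pairs, with a correlation of log2 signal across probe sets of 0.859. RCA, the leaf marker Rubisco activase, was the only 1 of 10 leaf markers with a probe set of its own here and had a signal of 13882 to 20232. The 1 root marker of 6 so measured, EXPA7, had 35.7 to 118, the 1 guard cell marker of 5, FMA, had 207 to 377, and the 1 trichome marker of 4, TRY, had 205 to 421. TRY was higher in abh1 than in wild type, at 269 to 421 against 205 to 251, and its part in the results below was not tested. The annotation used pairs no probe set with ABH1 alone, so the level of the mutated gene could not be checked here.

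AT5G43440 had a lower signal on all 4 abh1 arrays than on any wild-type array. In wild type it gave 673 and 984 in mock and 743 and 893 in ABA, for replicates 1 and 2. In abh1 it gave 324 and 401 in mock and 350.5 and 342 in ABA. The highest abh1 array, at 401, lay well below the lowest wild-type array, at 673. The group means were 828 ± 220 (SD, n = 2) in wild-type mock, 818 ± 106 in wild-type ABA, 363 ± 54.5 in abh1 mock and 346 ± 6.12 in abh1 ABA. These levels and the differences drawn from them chose the gene, so they are a description and carry no test.

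AT5G43450 was lower in abh1 by a larger factor. In wild type its mock arrays gave 715 and 625 and its ABA arrays 960 and 688, for replicates 1 and 2. In abh1 the mock arrays gave 277 and 115 and the ABA arrays 251 and 163. The groups again did not overlap between genotypes, with 277 as the highest abh1 value and 625 as the lowest in wild type. The means were 670 ± 63.8 (SD, n = 2) in wild-type mock, 824 ± 192 in wild-type ABA, 196 ± 114 in abh1 mock and 207 ± 61.9 in abh1 ABA. RNA came from whole green tissue, so fewer cells that express the genes and less of their RNA per cell cannot be told apart.

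**Figure D1:**
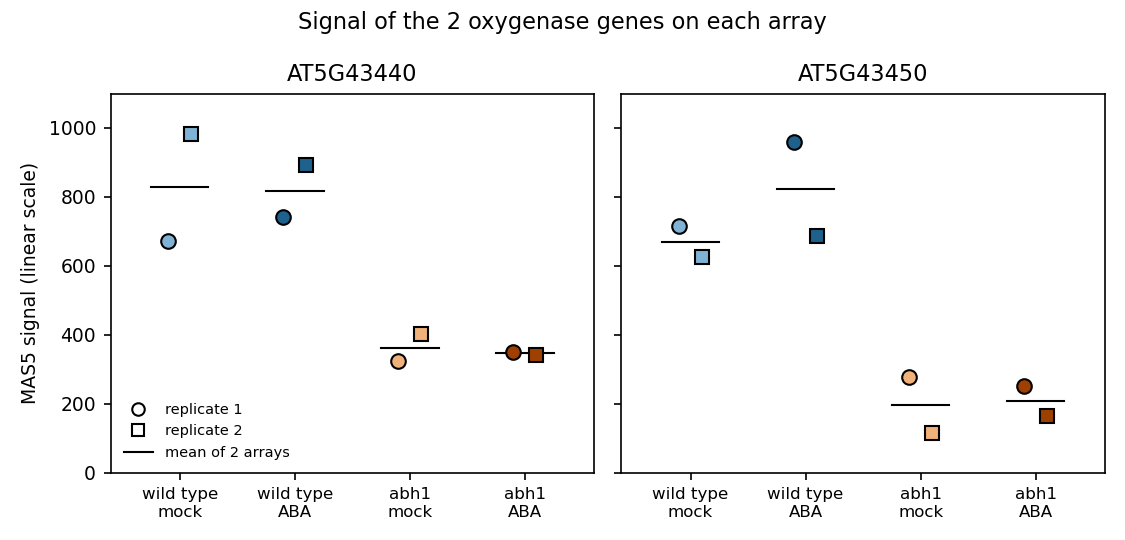
MAS5 signal (linear axis from 0) of AT5G43440 and AT5G43450 on each of the 8 arrays, by genotype and treatment, with circles for replicate 1, squares for replicate 2 and a line at the mean of the 2 arrays. For AT5G43440 the abh1 arrays end at 401 and the wild-type arrays begin at 673, and for AT5G43450 they end at 277 and begin at 625.

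Averaged over both treatments, AT5G43440 was 2.27-fold lower in abh1 (log2 -1.18 ± 0.21, SE) and AT5G43450 3.73-fold lower (log2 -1.90 ± 0.31), which leaves 44.0% and 26.8% of the wild-type level. Log2 values here are log2(signal + 9.38), where the added offset is the 10th percentile of all values, and come from a linear model in limma fitted to 13652 probe sets. By size of decrease they ranked 55 and 10 of those probe sets. All 4 abh1 arrays lay below all 4 wild-type arrays for 1.82% of the probe sets (248), and above them for 1.90% (260). The median difference of all probe sets was 0.02. The fit called 0.0146% of all probe sets in this comparison at an adjusted p under 0.05 (Benjamini-Hochberg), and 0.513% in a model that also holds a term for replicate number, called the replicate block below. Because this comparison chose the 2 genes, nothing is read from these shares.

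The lower level in abh1 was present in mock-sprayed and in ABA-sprayed tissue and within each replicate number. For AT5G43440, abh1 was 2.05-fold lower in mock replicate 1 and 2.42-fold in mock replicate 2. In ABA the same gene was 2.09-fold lower in replicate 1 and 2.57-fold in replicate 2, so its 4 values span a narrow range. For AT5G43450 the values were 2.53-fold and 5.08-fold lower in mock and 3.72-fold and 4.04-fold in ABA. The widest gap for AT5G43450 comes from abh1 mock replicate 2, the lowest array of all, and without that array the averaged difference was log2 -1.60 and that in mock -1.24, against -1.84 with it. AT5G43440 in mock stood at log2 -1.15, and at -0.88 and -1.42 without wild-type mock replicate 2 or 1. In each of the 4 pairs of arrays AT5G43450 was lowered more than AT5G43440, by a log2 difference of 0.31 to 1.07 (mean 0.72 ± 0.32, SD over 4 pairs), and this too is a description.

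The genes differed in how they varied between the replicate numbers. AT5G43450 was lower on replicate 2 than on replicate 1 in all 4 groups, by log2 values that fell by 0.19 in wild-type mock, 0.48 in wild-type ABA, 1.20 in abh1 mock and 0.59 in abh1 ABA. AT5G43440 was higher on replicate 2 in the first 3 of these groups, by 0.54, 0.26 and 0.30, and differed by -0.04 in abh1 ABA. Over all probe sets the median difference was 0.12, 0.27, 0.16 and 0.09 in the same order of groups. Being lower on replicate 2 in all 4 groups held for 17.9% of probe sets and being higher in all 4 for 34.7%. Whether the numbers stand for separate plantings or hybridisations is not stated in the labels.

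ABA, a comparison that did not choose the genes, left both without a change that passed the test. AT5G43440 differed by log2 -0.03 ± 0.21 (SE) between ABA and mock averaged over genotypes, with a 95% confidence interval of -0.50 to 0.45 and an adjusted p of 0.978 in limma's test. Within replicates its ABA difference was 0.14 and -0.14 in wild type and 0.11 and -0.23 in abh1, so the sign followed the replicate number in both genotypes. Relative to the median of all probe sets, which was -0.08 in this comparison, it stood at 0.05, and its sign turned, to 0.11 beside a median of 0.06, after median centring of each array, and to 0.04 after quantile normalisation. AT5G43450 differed by log2 0.22 ± 0.31, with an interval of -0.49 to 0.93 and an adjusted p of 0.843. Its ABA difference was 0.42 and 0.14 within wild-type replicates 1 and 2, and -0.14 and 0.47 within abh1. Of all probe sets, 0.11% were called in this comparison, and 2.31% with the replicate block, under which the adjusted p was 0.934 for AT5G43440 and 0.516 for AT5G43450.

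Within each genotype taken singly, neither gene passed the test for ABA. In wild type the ABA difference was log2 0.0013 ± 0.29 (SE) for AT5G43440 and 0.28 ± 0.43 for AT5G43450, with limma adjusted p-values of 0.9998 and 0.999. In abh1 it was -0.06 ± 0.29 and 0.17 ± 0.43, with adjusted p-values of 0.996 and 0.992, and median centring turned the first of these to 0.11. In each genotype 0 of all probe sets were called by limma, at 574 and 576 with an unadjusted p under 0.05, and 0.00732% and 0.125% with the replicate block. The difference between the ABA effects of the genotypes, abh1 minus wild type, was log2 -0.06 for AT5G43440, with an interval of -1.01 to 0.89, and -0.11 for AT5G43450, with an interval of -1.54 to 1.31, and both adjusted p-values were 0.99998. Quantile normalisation turned both signs, to 0.04 and 0.05. Limma called 0 of the 13652 probe sets in this last comparison, with 38 at an unadjusted p under 0.05, and 0 and 248 with the replicate block. The intervals are wide, and precision is limited by having 2 arrays a group. All p-values are set by array-to-array spread, part of which may be technical.

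**Figure D2:**
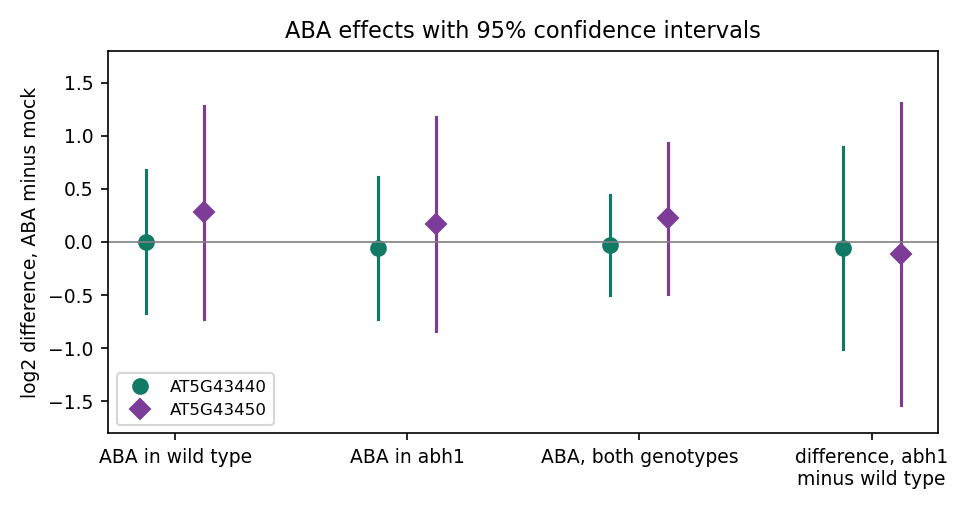
Log2 difference between ABA and mock for AT5G43440 (circles) and AT5G43450 (diamonds) in wild type, in abh1 and over both genotypes, and the difference of the genotypes' ABA effects, with vertical lines for 95% confidence intervals from the limma fit without the replicate block. Every interval includes 0, and the widest, for the difference between genotypes in AT5G43450, runs from -1.54 to 1.31.

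The nearest measured genes on either side of the pair showed no difference between genotypes that passed the test. Limma called 0.0146% of all probe sets in this comparison, and 0.513% with the replicate block. Not passing therefore does not set these neighbours apart, and the pair itself was not tested in it. Of the 10 loci on each side of the pair in the RefSeq gene table, 4 have a probe set of their own, and 2 of these passed the filter on mean signal. ETFBETA, the beta subunit of the electron transfer flavoprotein, is the locus before AT5G43440, and the spans of the 2 loci overlap in that table. Its signal was 840 and 633 in wild-type mock, 1271 and 803 in wild-type ABA, 690 and 717 in abh1 mock, and 947 and 983 in abh1 ABA. The genotypes overlapped, and the averaged abh1 difference was log2 -0.06 ± 0.21 (SE), with an interval of -0.56 to 0.44 and a limma adjusted p of 0.99998. On the other side, separated from AT5G43450 by a transfer RNA locus, AT5G43460 had 3931 and 2947 in wild-type mock, 5669 and 3071 in wild-type ABA, 4242 and 2760 in abh1 mock, and 5050 and 3802 in abh1 ABA. Its averaged difference was log2 0.04 ± 0.26, with an interval of -0.56 to 0.64 and the same adjusted p. Leaving out single arrays moved the first from -0.22 to 0.11 and the second from -0.18 to 0.26. ABA gave log2 0.46 ± 0.21 for ETFBETA and 0.32 ± 0.26 for AT5G43460, at adjusted p-values of 0.615 and 0.743.

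The other measured loci near the pair were dim. AT5G43410 had signals of 2.62 to 24.9 over the 8 arrays and AT5G43480 of 1.25 to 25.3, and neither passed the filter on mean signal. The gene table places 2 long noncoding RNA loci, AT5G06505 and AT5G06515, in the order between the pair, and both overlap the span of AT5G43440. Neither has a probe set of its own here, and whether the AT5G43440 probe set also reads RNA of these loci or of ETFBETA was not tested. Over the whole array, 2151 pairs of adjacent protein-coding genes had both members past the filter on mean signal. AT5G43440 with AT5G43450 was the 1 pair of these in which both genes were lower in abh1 with no overlap between genotypes. In 0 pairs were both higher with no overlap. By size alone, both genes were over 1 log2 lower in 1 pair, this one, and over 1 log2 higher in 2 pairs. Since the pair was picked for this difference, the count describes where it stands and tests nothing.

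**Figure D3:**
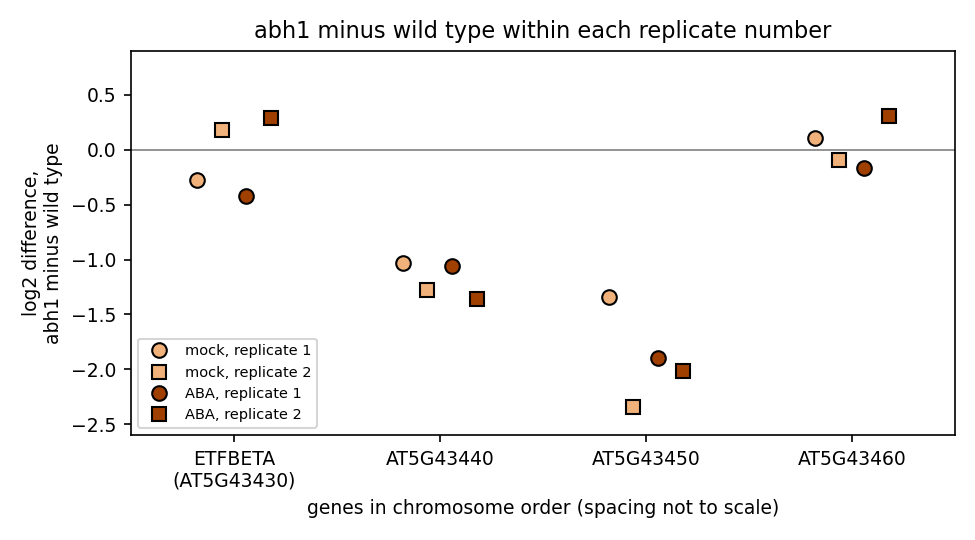
Log2 difference between abh1 and wild type within each treatment and replicate number for the 2 genes and their nearest measured neighbours, in chromosome order with spacing not to scale. All 4 values lie between -1.03 and -2.35 for AT5G43440 and AT5G43450, and values of both signs are seen for ETFBETA and AT5G43460.

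Other oxygenases were examined for whether the difference between genotypes was general to the class. Of 77 listed genes other than the pair, 40 have a probe set of their own and 25 passed the signal filter. By limma 0 of these 25 were called for the averaged abh1 effect, higher or lower, with or without the replicate block, and 4 had an unadjusted p under 0.05 in each fit. Over all probe sets 0.0146% were called without the block and 0.513% with it, so the count of 0 called does not set these genes apart. An unadjusted p under 0.05 in limma was found for 4.70% and 11.4% of all probe sets, smaller shares than 4 of 25. Their median difference was log2 0.01, against 0.02 for all probe sets, with 13 higher and 12 lower. Of the 25, 3 had all abh1 arrays below all wild-type arrays and 0 had them above, where 1.82% and 1.90% of all probe sets did. The share below was thus larger than that of all probe sets. Whether the listed genes as a set differ from all probe sets was not tested. For ABA averaged over genotypes limma called 0 of 25 in either fit, where 0.11% of all probe sets were called without the block and 2.31% with it. At an unadjusted p under 0.05 in limma there were 2 of 25 without the block and 3 with it, where 8.51% and 21.6% of all probe sets were. These ABA counts do not set the listed genes apart. Their median was -0.06 against -0.08 for all.

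Within the ACC oxidase-like group that holds the pair, 13 other genes were listed, all 13 have a probe set and 8 passed the filter. Limma called 0 of the 8, where 0.0146% of all probe sets were called, and 2 of the 8 had an unadjusted p under 0.05, where 4.70% of all did. Those 2 were lower in abh1, with all abh1 arrays below all wild-type arrays, as held for 1.82% of all probe sets. AT1G04350 had 2091 and 2041 in wild-type mock, 2051 and 1895 in wild-type ABA, 911 and 1314 in abh1 mock, and 989 and 1380 in abh1 ABA. It was 1.78-fold lower in abh1 with no overlap between genotypes (log2 -0.83 ± 0.20, SE), at an adjusted p of 0.53, and 0.0881 with the replicate block. AT5G59540 had 1697 and 1735 in wild-type mock, 1397 and 1610 in wild-type ABA, 894 and 1102 in abh1 mock, and 937 and 1160 in abh1 ABA. It was 1.57-fold lower, again with no overlap (log2 -0.65 ± 0.18), at an adjusted p of 0.667, and 0.0998 with the block. Both had ABA differences near 0, at log2 0.01 ± 0.20 and -0.06 ± 0.18.

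The remaining 6 members of that group ranged from log2 -0.15 for AT2G25450 to 0.46 for AT1G06620. AT1G06640 was at 0.42 ± 0.27 (SE) and AT1G06650 at 0.01 ± 0.19, a sign that median centring turned to -0.02. The 5 that did not pass the filter were AT1G04380, AT2G30830, AT2G30840, AT3G61400 and AT5G59530. The group holds 3 further pairs of adjacent genes, and both genes passed the filter in 1 of them, AT1G03400 with AT1G03410, at log2 0.28 and 0.08. AT1G03410 (2A6) has a further, dimmer probe set that did not pass. That probe set gave 104.5 and 155 in wild-type mock, 107 and 152 in wild-type ABA, 77.6 and 77.6 in abh1 mock, and 83.2 and 104.4 in abh1 ABA. Unlike the brighter one, it was lower on every abh1 array than on any wild-type array, though at the closest by 104.4 against 104.5. Sequences were not compared here, so whether probes of one gene of the group also bind another's RNA was not tested.

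Among listed oxidases of jasmonate, salicylate and auxin, 6 of 9 have a probe set and 4 passed the filter. For abh1 averaged over treatments 2 were higher and 2 lower, with a median of log2 0.05. In ABA-sprayed tissue 1 was higher in abh1 and 3 were lower (median -0.39). Within abh1, 2 were higher with ABA and 2 lower (median 0.02). In mock all 4 were higher in abh1 (median 0.58, lowest 0.06), and in wild type all 4 were higher with ABA (median 0.85). The ABA effect was lower in abh1 than in wild type for all 4 (median -1.05). None of the 4 was called by limma in these comparisons, with or without the replicate block. In the last 3 comparisons, 1, 2 and 1 of them had an unadjusted p under 0.05 in limma without the block, where 2.92%, 4.2% and 0.278% of all probe sets did. With the block there were 2, 2 and 2, where 8.55%, 11.7% and 1.82% of all probe sets were. The medians of all probe sets were 0.01, -0.09 and 0.03, and the wild-type mock arrays enter all 3 comparisons. JRG21 (AT3G55970), a jasmonate-regulated gene, had 120 and 54.0 in wild-type mock, 129 and 171 in wild-type ABA, 927 and 237 in abh1 mock, and 164 and 172 in abh1 ABA. Its averaged abh1 difference was log2 1.29 ± 0.45 (SE), at an adjusted p of 0.902, and was 2.41 ± 0.64 in mock and 0.17 ± 0.64 in ABA, with abh1 mock replicate 1 far above the other arrays. AT5G05600, of the same list, was at log2 0.22 ± 0.34 for abh1 and 0.93 ± 0.34 for ABA, AT2G38240 at -0.11 and 0.51, and AT1G14130 at -0.14 and 0.11.

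Among coumarin and glucosinolate oxygenases, 5 of 6 have a probe set and 3 passed. AOP1, of a family whose other members modify glucosinolate side chains, had 359 and 481 in wild-type mock, 480 and 383 in wild-type ABA, 183 and 244 in abh1 mock, and 301 and 297 in abh1 ABA. It was 1.65-fold lower in abh1 with no overlap between genotypes (log2 -0.73 ± 0.21, SE), at an adjusted p of 0.721, and 0.174 with the block. AT3G12900 and AT1G55290 (F6'H2, an enzyme of coumarin synthesis) were at log2 0.34 ± 0.39 and -0.09 ± 0.33. Of 5 listed ACC oxidases the 1 measured, AT1G12010, was at 0.11 ± 0.39. In the list of SRG1-like and other oxygenases, 15 of 20 have a probe set and 9 passed. Of these 4 were higher and 5 lower for abh1, and 2 higher and 7 lower for ABA (median -0.13, against -0.08 for all), with AT3G19010 at 0.63 ± 0.31, AT3G50210 at 0.27 ± 0.20 and AT3G19000 at -0.46 ± 0.35 for abh1, and AT3G60290 at -0.57 ± 0.19 for ABA. The 16 gibberellin and 8 flavonoid oxygenases listed have no probe set of their own in the annotation used and are not analysed here.

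**Figure D4:**
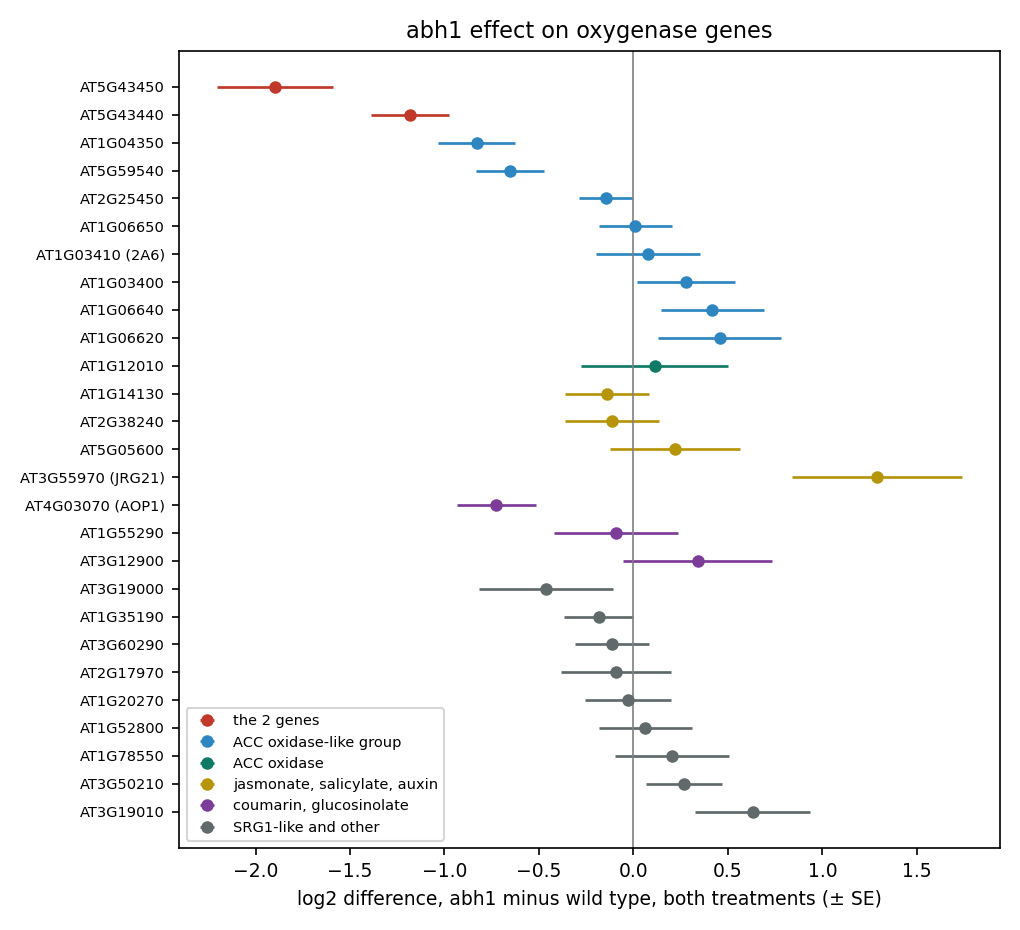
Log2 difference between abh1 and wild type averaged over both treatments, with horizontal bars for the SE of the limma fit, for AT5G43440, AT5G43450 and the 25 other oxygenase genes that passed the signal filter, coloured by list. The 2 genes sit at -1.18 and -1.90, and the others lie between -0.83 and 1.29.

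Likeness of pattern was measured as the root mean square difference between log2 profiles over the 8 arrays, each profile centred on its own mean. For AT5G43440 the 5 nearest of the probe sets with 1 gene were AT4G02540 (0.15), AT1G24610 (0.21), AT3G43670 (0.26), the cytochrome P450 gene CYP71B24 (0.27) and AT5G42765 (0.28), where the median distance over 13651 probe sets was 0.71. AT4G02540 ran from 264 to 483 in wild type and from 145 to 173 in abh1. For AT5G43450 they were AT2G38790 (0.37), AT3G01920 (0.43), AT1G64360 (0.46), the cold-regulated gene COR15B (0.48) and AT2G01870 (0.49), where the median was 1.12. AT2G38790 ran from 487 to 997 in wild type and from 193 to 324 in abh1. All 10 are lower in abh1 on average, by log2 values from -0.92 to -1.73, which their choice by likeness fixes.

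By this distance the 2 genes were not each other's nearest. The profiles are not scaled, so the distance grows with a difference in size of change as well as in shape. AT5G43450 had the larger difference between genotypes, at log2 -1.90 against -1.18. How much size and shape each add to the ranks was not tested. AT5G43440 stood at rank 34 in distance from AT5G43450, and AT5G43450 at rank 2902 in distance from AT5G43440, with a distance of 0.61 either way. The lists of nearest genes share 0 genes. Within wild type, the 5 genes nearest to AT5G43440 were higher on replicate 2 in 9 of 10 comparisons, and those nearest to AT5G43450 were lower in 9 of 10. Each 10 is 5 genes over the same 2 pairs of arrays, mock and ABA, so the comparisons are not independent. The choice by likeness also bears on these counts. Higher was the more usual direction, as the median over all probe sets was 0.12 in wild-type mock and 0.27 in wild-type ABA. Of all probe sets, 34.7% were higher on replicate 2 in all 4 groups and 17.9% lower.

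**Figure D5:**
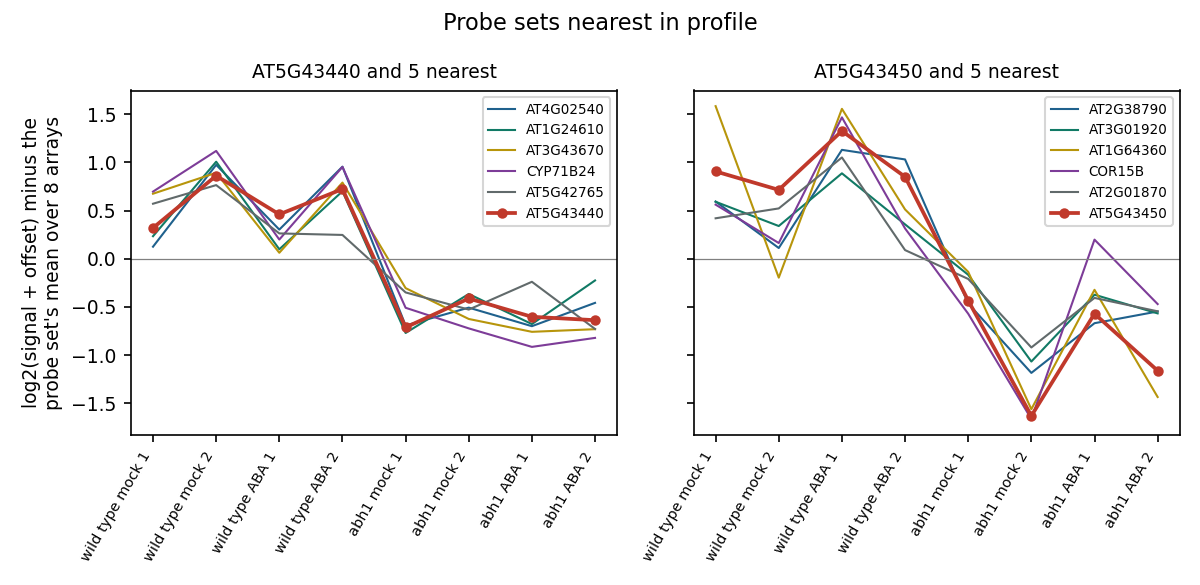
Log2(signal + offset) minus the mean over 8 arrays, for AT5G43440 (left, red) and AT5G43450 (right, red) with the 5 nearest genes of each, across the arrays in the order of groups and replicate numbers. The red lines lie above 0 on the 4 wild-type arrays and below 0 on the 4 abh1 arrays.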

How the data were processed

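The authors' deposited values are MAS5 signal per probe set on a linear scale, made with Affymetrix Micro Array Suite 5.0 per the series text. Its settings were not given in the sources used here, and no further normalisation was applied. Of 22810 probe sets, 64 control probe sets were left out, and a filter at the 40th percentile of the 8-array mean (115.4) left 13652. An offset of 9.38 was added before log2. The annotation gives 1 gene for 13513 probe sets, several for 503 and none for 8794, and 13436 matched a RefSeq (TAIR10.1) gene, used for names and gene order only. A gene with several probe sets is represented by the brightest. Sequences were not used here.

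Linear models with 4 group means were fitted in limma 3.58.1 (R 4.3.3) to all arrays, with an intensity trend in eBayes, 4 residual degrees of freedom, two-sided tests and Benjamini-Hochberg adjustment over all 13652. With 2 arrays against 2, the smallest exact p is 0.33, so no such test was made. Same-numbered arrays deviated together from their group means (correlation across probe sets 0.394 to 0.714 over 6 pairs of groups, where over 0.1 was required for treating them as pairs). The replicate block, with 3 residual degrees of freedom, is therefore given where it changes a call or moves a count by over 1.5 times. The nearest profiles are an exception. The block changes the abh1 call for several of them, but their choice by likeness fixes that difference, so no test of it is given. SEs and intervals are without it unless said, and so do not use this pairing.

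The pair, the gene lists and the tests were chosen with earlier results of these data known. Lists came from background knowledge of locus codes. Named genes are the pair, called oxygenases of each list or else up to 3 with the smallest p for the averaged abh1 effect and 2 for ABA, measured loci among 10 on each side, and the 5 nearest profiles. In addition AT1G06620, AT2G25450, AT1G03400 and AT1G03410, and the group members that did not pass the filter, were named after their values were seen. Alternatives were another offset, filter, scaling or variance model, the replicate block, and leaving out each array.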

Additional observations from a re-analysis of the deposited data

Results flagged for a closer look

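Among 30 named genes, 5 went one way with ABA in both wild-type pairs of same-numbered arrays and the other way in both abh1 pairs, and neither AT5G43440 nor AT5G43450 is among them. The share of all probe sets with this pattern was not counted, so nothing is read from the count of 5. The difference between the ABA effects, abh1 minus wild type, was log2 0.58 ± 0.78 (SE) for AT1G12010, 0.16 ± 0.41 for AT1G04350, 0.26 ± 0.36 for AT5G59540, -2.24 ± 0.90 for AT3G55970 and 0.34 ± 0.53 for AT1G24610. It was tested in limma and passed for none of the 5, each at an adjusted p of 0.99998 without the replicate block and 0.99996 with it. AT3G55970 changed by 0.10 and 1.51 in wild type and by -2.43 and -0.44 in abh1.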

How the results depend on the processing

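Under 9 other settings and with each of the 8 arrays left out, both genes stayed lower in abh1 on average. AT5G43440 ranged from log2 -1.22 to -1.10 under the settings and from -1.32 to -1.05 with an array left out, and AT5G43450 from -1.95 to -1.70 and from -2.20 to -1.60. Their ABA effects and the genotype difference in them passed no test under any of these, with a lowest adjusted p of 0.445, but signs turned. For AT5G43440, median centring gave 0.11 for ABA averaged over genotypes and 0.11 within abh1. Quantile normalisation, alone and with the replicate block, gave AT5G43440 0.040 on average, 0.060 within abh1 and 0.042 for the genotype difference, and AT5G43450 0.052 for the last. The abh1 difference of AT1G06650 became -0.023 with median centring and -0.014 with quantile normalisation, blocked or not. Leaving out single arrays gave AT5G43440 -0.16 to 0.11 (ABA on average), -0.27 to 0.27 (wild type), -0.21 to 0.092 (abh1) and -0.33 to 0.21 (genotype difference). For AT5G43450 it gave -0.077 to 0.52, 0.04 to 0.52, -0.43 to 0.76 and -0.71 to 0.49 in that order. For the abh1 difference it gave -0.11 to 0.13 for AT1G06650, -0.21 to 0.43 for AT1G12010, -0.28 to 0.00010 for AT1G14130, -0.26 to 0.083 for AT1G55290, -0.30 to 0.073 for AT2G38240, -0.13 to 0.57 for AT5G05600, -0.22 to 0.11 for ETFBETA (AT5G43430) and -0.18 to 0.26 for AT5G43460. Without a change of sign it moved some values by over 1.5 times. Leaving out wild-type ABA replicate 1 or 2 gave 0.17 or 0.67 for AT1G06640, -0.80 or -0.12 for AT3G19000 and 0.37 or 0.89 for AT3G19010. Leaving out wild-type mock replicate 1 or 2 gave 0.038 or 0.64 for AT3G12900, and leaving out abh1 mock replicate 1 or 2 gave 0.81 or 1.77 for AT3G55970 (JRG21) and -0.013 or -0.22 for AT3G60290. AT3G50210 stood at 0.16 without abh1 ABA replicate 1. These are the lowest and highest values, and other arrays moved some of these genes by less. Of 28 other named genes, 20 kept the direction of the averaged abh1 difference under each alternative that gave them a value. That was 17 alternatives, or 16 for 4 of the 28, which were too dim for the filter at the 50th percentile.

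Counts over all probe sets depended on the setting. For abh1 averaged, 2 called became 1 with no filter, with quantile normalisation or with no intensity trend, 4 with a filter at the 50th percentile, 70 with the replicate block and 119 with the block and quantile normalisation. With an array left out, the count was 0 to 7, with 0 without either wild-type mock array and 7 without wild-type ABA replicate 2. For ABA averaged, 15 became 27 with an offset of 50, 1 with no filter, 0 with median centring or no intensity trend (986 and 1097 at an unadjusted p under 0.05 in limma), 48 with quantile normalisation, 315 with the block and 493 with both. It was 0 to 891 with an array left out, with 891 without wild-type ABA replicate 2. The cause was not tested. The replicate block changed no call among the ABA effects of AT5G43440 and AT5G43450, nor among the averaged abh1 and ABA effects of their neighbours and the listed oxygenases. How far each signal lay above background is not known here.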
